A study of Ovis aries with 9 samples.

Results

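The vacuolar ATPase is the proton pump of lysosomes, endosomes and synaptic vesicles. A soluble V1 sector hydrolyses ATP and turns a rotor, and a membrane V0 sector carries protons through the membrane. In neurons the pump fills synaptic and dense-core vesicles with the proton gradient that transmitter transporters use, and several of its subunits exist as a broadly expressed form and a form that is enriched in brain or neurons. The members followed here were 10 genes of the complex: ATP6V1A, ATP6V1B2, ATP6V1D, ATP6V1H, ATP6V1G1 and ATP6V1G2 of the V1 sector, and ATP6V0C, ATP6V0D1, ATP6V0E1 and ATP6V0E2 of the V0 sector. They were chosen by symbol, as 10 of the 19113 protein-coding genes with a value above 0 in the deposited expression table, and all 10 were among the 14238 genes that passed a filter on low values (a mean FPKM of at least 0.5 in at least 1 stage). FPKM is the number of fragments of a transcript scaled to the transcript's length and to the mapped fragments of the library, and the values of all RefSeq mRNA transcripts of a gene were summed.

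The libraries came from the hypothalami of healthy Dolang sheep ewes kept under the same conditions: 3 ewes at prepuberty (120 days after birth), 3 at first puberty (130 days) and 3 at postpuberty (150 days), with poly-A selected RNA and 1 library per animal. Acceptance of the ram, restlessness and a mucous discharge from the vulva set the puberty group apart from the younger and the older ewes. Libraries are named by stage and replicate number. Stage and age cannot be told apart in this design.

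Puberty 2 stood apart from the other 8 libraries over all genes. Its FPKM values summed to 599726 against 359588 to 398109 elsewhere, and it listed at 0 32 genes whose FPKM was 10 or more everywhere else, against 0 such genes for any other library. The main results for the members are therefore given with and without it, and relations of other genes of the complex with neuron markers are given without it. The labelled tissue was checked against its markers. Neuron markers were present in all libraries, whereas 8 of the 18 hypothalamic marker genes found were below the filter (AGRP, PMCH, GHRH, KISS1, GAL, SIM1, NR5A1 and RAX), and OXT and AVP, the hormones of magnocellular neurons, had mean FPKM of 1.40 and 2.47. SST (41.9), TRH (10.8), POMC (8.87) and NPY (7.08) were higher. The remaining markers that passed the filter were low: HCRT (0.667), OTP (1.27), TAC3 (1.31) and CARTPT (2.79). The mean of POMC included 22.4 in Puberty 2, against 2.09 to 17.4 in the other libraries. The mean of AVP included 10.4 in Puberty 2, and AVP was between 0.551 and 3.15 in the other libraries. The makeup of the pieces differed between libraries within a stage: TTR, a marker of choroid plexus, had an FPKM of 255, 554 and 7590 at puberty and of 337, 9.07 and 32.5 at prepuberty. Summed markers ranged over the 9 libraries from 2770 to 7140 for astrocytes and up to 343 for microglia. They ranged from 75.8 to 651 (Puberty 2) for vessels and from 0.125 to 216 (Postpuberty 1) for pituitary. None of these genes was called between stages. The astrocyte range was mostly that of GFAP, at 2350 in Prepuberty 2 and 6620 in Prepuberty 1. Between these libraries SLC1A2 and SLC1A3 ran the other way, and AQP4, ALDH1L1 and GJA1 did not. Likewise, CLDN5 was 624 of the highest vessel sum and PRL 200 of the highest pituitary sum. In bulk tissue, fewer cells of a type and less RNA per cell cannot be told apart.

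The catalytic head of V1 consists of A and B subunits. ATP6V1A, the A subunit that hydrolyses ATP (chromosome 1, 179372685 to 179436004, ARS-UI_Ramb_v3.0), was measured at FPKM 26.0, 83.2 and 38.1 in Prepuberty 1, 2 and 3, at 60.9, 6.01 and 48.7 in Puberty 1, 2 and 3 and at 28.3, 58.5 and 49.5 in Postpuberty 1, 2 and 3, the order used for all genes. ATP6V1B2, the B subunit of most tissues (chromosome 2, 45601553 to 45626453), gave 44.9, 140 and 69.7 at prepuberty, 90.1, 18.8 and 91.6 at puberty and 52.3, 112 and 84.3 at postpuberty. Both genes were highest in Prepuberty 2 and lowest in Puberty 2, and the 3 stages overlapped.

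The low ATP6V1A value of Puberty 2 came from another transcript than elsewhere. XM_004002928.5 made up between 92.1% and 100% of the FPKM of ATP6V1A in the other 8 libraries and was listed at 0 in Puberty 2, where XM_042231548.1 held the whole 6.01. XM_042231548.1 did not exceed 0.127 in any other library.

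ATP6V1D, a subunit of the central rotor stalk (chromosome 7, 77302259 to 77318165), was at FPKM 30.6, 51.8 and 35.1 at prepuberty, 46.7, 18.6 and 38.3 at puberty and 25.3, 49.2 and 40.8 at postpuberty. ATP6V1H, which regulates the joining of the sectors (chromosome 9, 34843365 to 34914827), gave 26.4, 47.6 and 33.1, then 36.3, 19.9 and 35.7, then 26.8, 43.4 and 37.4. Puberty 2 was again the lowest library for both, and the first replicate was below the other replicates at prepuberty and at postpuberty. ATP6V1H was the only member with 2 transcripts at substantial levels: XM_004011678.6 had an FPKM of 7.54 to 16.1 in 8 libraries and was listed at 0 in Puberty 2, whereas XM_004011677.6 had 12.2 to 31.1 in the 8 libraries and 19.9 in Puberty 2.

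G subunits form part of the peripheral stalk that holds the head still while the rotor turns, with ATP6V1G1 as the widely expressed form and ATP6V1G2 as the neuronal form. ATP6V1G1 (chromosome 2, 9180357 to 9189399) was at FPKM 75.1, 45.5 and 51.3 at prepuberty, 53.3, 49.0 and 59.4 at puberty and 60.8, 54.6 and 66.4 at postpuberty. ATP6V1G2 (chromosome 20, 26825768 to 26827882) gave 47.5, 171 and 84.0 at prepuberty, 113, 30.2 and 121 at puberty and 71.6, 154 and 90.7 at postpuberty. The highest of the 8 libraries other than Puberty 2 was 1.65 times the lowest for ATP6V1G1 and 3.59 times the lowest for ATP6V1G2. At prepuberty the order of the libraries was opposite for the 2 genes: Prepuberty 2 had the lowest ATP6V1G1 and the highest ATP6V1G2 of these 8 libraries and Prepuberty 1 the reverse.

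In the V0 sector, ATP6V0C encodes the proteolipid of the proton-carrying ring (chromosome 24, 2525030 to 2529713) and was the most abundant member. Its FPKM was 191, 302 and 211 at prepuberty, 223, 276 and 244 at puberty and 163, 302 and 258 at postpuberty. ATP6V0D1, the coupling subunit between stalk and ring (chromosome 14, 34609883 to 34647816), had 55.3, 112 and 70.3, then 83.2, 98.0 and 76.8, then 47.7, 101 and 88.7. For both genes Puberty 2 lay within the range of the other libraries, and Postpuberty 1 was the lowest of all.

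The small e subunits of V0 also come as a broad form, ATP6V0E1 (chromosome 16, 4903057 to 4931145), and a brain-enriched form, ATP6V0E2 (chromosome 4, 113874961 to 113880123). ATP6V0E1 was at FPKM 29.4, 9.52 and 18.5 at prepuberty, 10.9, 22.9 and 17.4 at puberty and 20.7, 11.2 and 26.3 at postpuberty. ATP6V0E2 gave 37.5, 116 and 64.4 at prepuberty, 70.3, 169 and 92.3 at puberty and 11.7, 106 and 91.1 at postpuberty. ATP6V0E2 was the only member with its highest value in Puberty 2, and its value in Postpuberty 1 was the lowest, so that it varied the most of the 10 members, 9.93-fold among the 8 libraries. Within stages, and without Puberty 2, the SD of log2(FPKM + 1) was 0.256 for ATP6V1G1 and 1.21 for ATP6V0E2, with a median of 0.552 over the members against 0.290 over all genes tested.

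**Figure D1:**
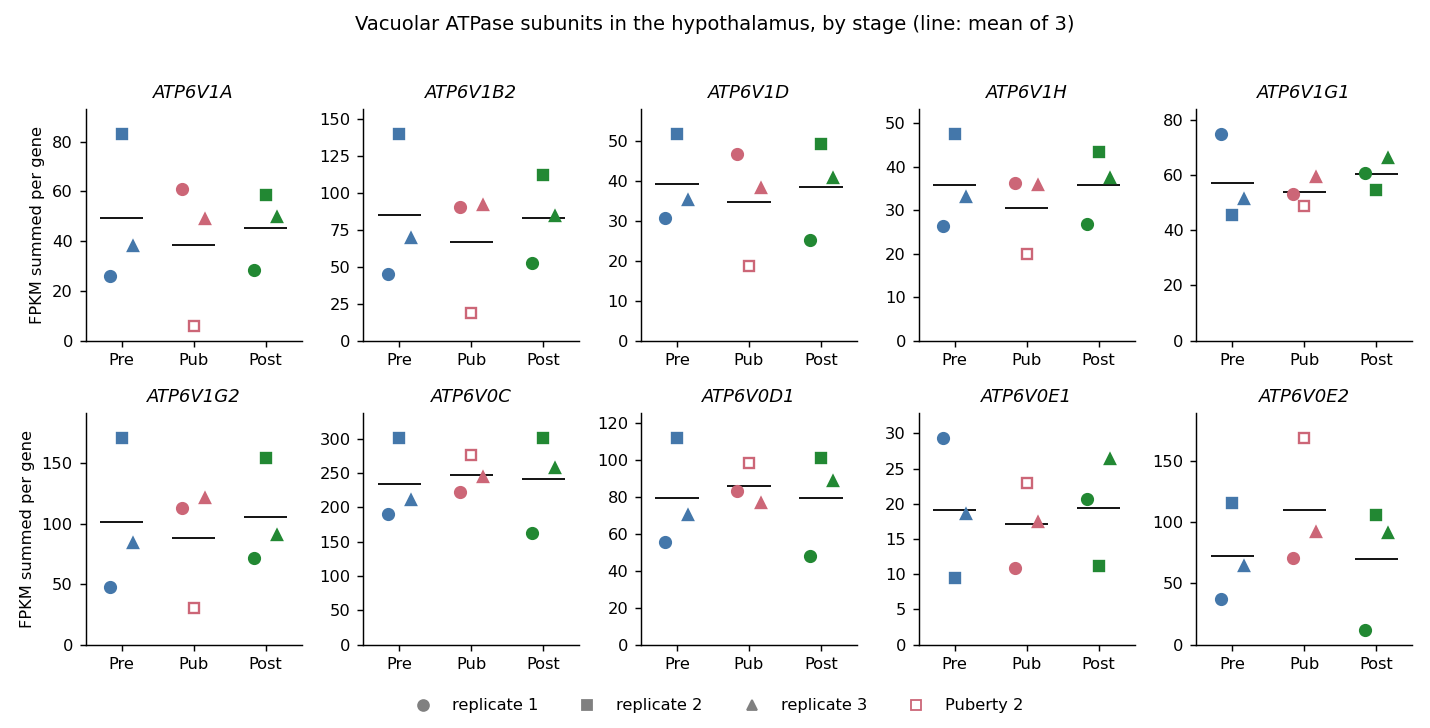
FPKM summed per gene (vertical axes, linear from 0) of the 10 vacuolar ATPase genes in each of the 9 libraries, by stage (Pre, prepuberty; Pub, puberty; Post, postpuberty); symbols mark replicate numbers, the open square is Puberty 2 and lines are means of 3. The stages overlap for each gene, and Puberty 2 is the lowest library for ATP6V1A, ATP6V1B2, ATP6V1D, ATP6V1H and ATP6V1G2.

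FPKM is scaled by transcript length, so levels can be ordered between genes. By their mean FPKM over the 8 libraries without Puberty 2 the order was ATP6V0C (237), ATP6V1G2 (107), ATP6V1B2 (85.6), ATP6V0D1 (79.3), ATP6V0E2 (73.6), ATP6V1G1 (58.3), ATP6V1A (49.1), ATP6V1D (39.7), ATP6V1H (35.8) and ATP6V0E1 (18.0). The 9 pairs of neighbours were compared within libraries by an exact two-sided sign-flip permutation test on log2 ratios, with Benjamini-Hochberg adjustment over the 9 pairs. The pairs and their direction were taken from the same libraries that were tested, so the p-values describe an order already seen. With 8 libraries this test cannot give a p below 0.00781. ATP6V0C was above ATP6V1G2 in 8 of 8 libraries, by 1.23 ± 0.39 (SD) on the log2 scale (exact p = 0.00781, adjusted p = 0.0351). ATP6V1G2 was above ATP6V1B2 in 8 of 8 libraries, by 0.30 ± 0.14 (exact p = 0.00781, adjusted p = 0.0351), and ATP6V1H was above ATP6V0E1 in 7 of 8, by 1.07 ± 0.86 (p = 0.0156, adjusted p = 0.0468). The other 6 pairs of neighbours did not pass (adjusted p between 0.0527 and 0.852, exact test). With all 9 libraries the neighbours changed, and only ATP6V0C and ATP6V1G2, then 1.45 ± 0.75 apart in 9 of 9 libraries, passed (exact p = 0.00391, adjusted p = 0.0352).

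The neuronal G subunit exceeded the broad one in most animals. The ratio of ATP6V1G2 to ATP6V1G1 was 0.633, 3.75 and 1.64 at prepuberty, 2.12, 0.616 and 2.04 at puberty and 1.18, 2.81 and 1.36 at postpuberty, above 1 in 7 of 9 libraries. Prepuberty 1 and Puberty 2 were the exceptions. The ratio of ATP6V0E2 to ATP6V0E1 was 1.28, 12.2 and 3.48 at prepuberty, 6.42, 7.36 and 5.31 at puberty and 0.562, 9.41 and 3.46 at postpuberty, above 1 in 8 of 9 libraries, with Postpuberty 1 as the exception. Both ratios were highest in Prepuberty 2, and each spanned more within prepuberty than between stage means.

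**Figure D2:**
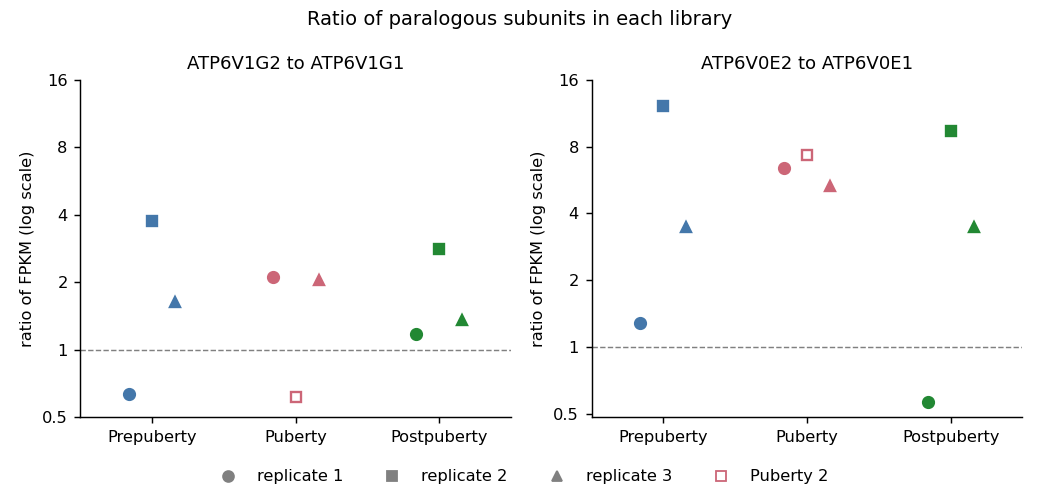
Ratio of the FPKM of ATP6V1G2 to ATP6V1G1 (left) and of ATP6V0E2 to ATP6V0E1 (right) in each library, on log2-spaced axes, by stage; symbols mark replicate numbers, the open square is Puberty 2 and the dashed line is a ratio of 1. The neuronal or brain-enriched form exceeds the broad form in 7 and 8 of the 9 libraries.

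Neither ratio differed between stages beyond the spread between animals. The log2 ratio of ATP6V1G2 to ATP6V1G1 was 0.65 ± 1.29 (SD, n = 3) at prepuberty, 0.47 ± 1.01 at puberty and 0.73 ± 0.67 at postpuberty. Its differences were -0.18 for puberty minus prepuberty, 0.25 for postpuberty minus puberty and 0.07 for postpuberty minus prepuberty (exact two-sided permutation p = 0.9, 0.8 and 1). Without Puberty 2 the first and the second difference changed sign, to 0.40 and -0.33 (exact p = 0.7 and 0.5).

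For ATP6V0E2 to ATP6V0E1 the log2 ratio was 1.92 ± 1.63 (SD, n = 3) at prepuberty, 2.66 ± 0.24 at puberty and 1.40 ± 2.06 at postpuberty. The differences were 0.74, -1.26 and -0.52 in the same order (exact permutation p = 0.6, 0.4 and 0.7), and 0.63 and -1.15 for the first and the second without Puberty 2 (exact p = 0.7 and 0.6). Other single libraries moved them further. The first was -0.045 without Prepuberty 1 and 1.58 without Prepuberty 2. The second was -0.14 without Postpuberty 1 and -2.18 without Postpuberty 2, and the third was 0.59 and -1.44 without these 2 libraries in turn. With 3 animals against 3, the exact test cannot give a two-sided p below 0.1.

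The comparison of stages over all genes asked which transcripts changed as the ewes passed through puberty. With limma on log2(FPKM + 1) in 1 fit of all 9 libraries, with genes called at an adjusted p below 0.05 together with a log2 fold change of 1 or more in either direction, 0 members and 0 of 14238 genes (0%) were called in each of the 3 comparisons. At an unadjusted p below 0.05 there were 259 genes (1.82%) for puberty minus prepuberty, 305 (2.14%) for postpuberty minus puberty and 116 (0.815%) for postpuberty minus prepuberty, and 0 members in each. With weights estimated for each library, limma called 4 genes, 1 gene and 0 genes, and 0 members.

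For puberty minus prepuberty the members' log2 fold changes ran from -0.68 ± 0.79 (SE) for ATP6V1A to 0.65 ± 0.79 for ATP6V0E2, and 3 of 10 were above 0. Their median was -0.15, against -0.14 over all genes tested. ATP6V1B2 stood at -0.48 ± 0.65, ATP6V1G2 at -0.24 ± 0.62 and ATP6V1G1 at -0.06 ± 0.25. The adjusted p-values of the members were between 0.838 and 0.958.

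Most of these signs rested on Puberty 2. Without it, 9 of 10 members were above 0 for puberty minus prepuberty, with ATP6V1A at 0.31 ± 0.49, ATP6V1B2 at 0.25 ± 0.48 and ATP6V1G2 at 0.40 ± 0.52, a median of 0.11 over the members and of 0.02 over all genes, and ATP6V0E1 as the exception at -0.31 ± 0.50. All adjusted p-values of the members were 1 there. The 6 V1 members changed sign when that library was left out, and the 4 V0 members kept theirs. Without Prepuberty 1 instead, ATP6V0E1 (0.28 ± 0.47), ATP6V0C (-0.03 ± 0.36) and ATP6V0D1 (-0.05 ± 0.39) changed sign, as did ATP6V1G1 (0.15 ± 0.25).

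For postpuberty minus puberty, 7 of 10 members were above 0, with ATP6V1A at 0.68 ± 0.79, ATP6V1B2 at 0.54 ± 0.65 and ATP6V1G2 at 0.42 ± 0.62. ATP6V0E2 was lowest at -1.06 ± 0.79, and its adjusted p of 0.780 was the smallest of the members. That value rested on Postpuberty 1, since it was -0.07 ± 0.52 without that library and -1.61 ± 0.83 without Postpuberty 2. The median was 0.18 over the members and 0.19 over all genes. Without Puberty 2 only 2 of 10 were above 0, ATP6V0E1 at 0.39 ± 0.50 and ATP6V1G1 at 0.10 ± 0.23, while ATP6V1A stood at -0.32 ± 0.49 and ATP6V0E2 at -0.71 ± 0.91.

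Postpuberty minus prepuberty does not involve Puberty 2 except through the shared variance. Members ranged from -0.41 ± 0.79 for ATP6V0E2 to 0.18 ± 0.62 for ATP6V1G2, with 6 of 10 above 0 and a median of 0.02 (0.05 over all genes). Single libraries moved these values: without Prepuberty 2, ATP6V1G2 stood at 0.65 ± 0.64 and ATP6V1A at 0.45 ± 0.86, and without Postpuberty 1, ATP6V0E2 stood at 0.58 ± 0.52, with 5 of the 10 signs changed in each case. The 3 comparisons share libraries, so their values for a member are not independent of each other.

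**Figure D3:**
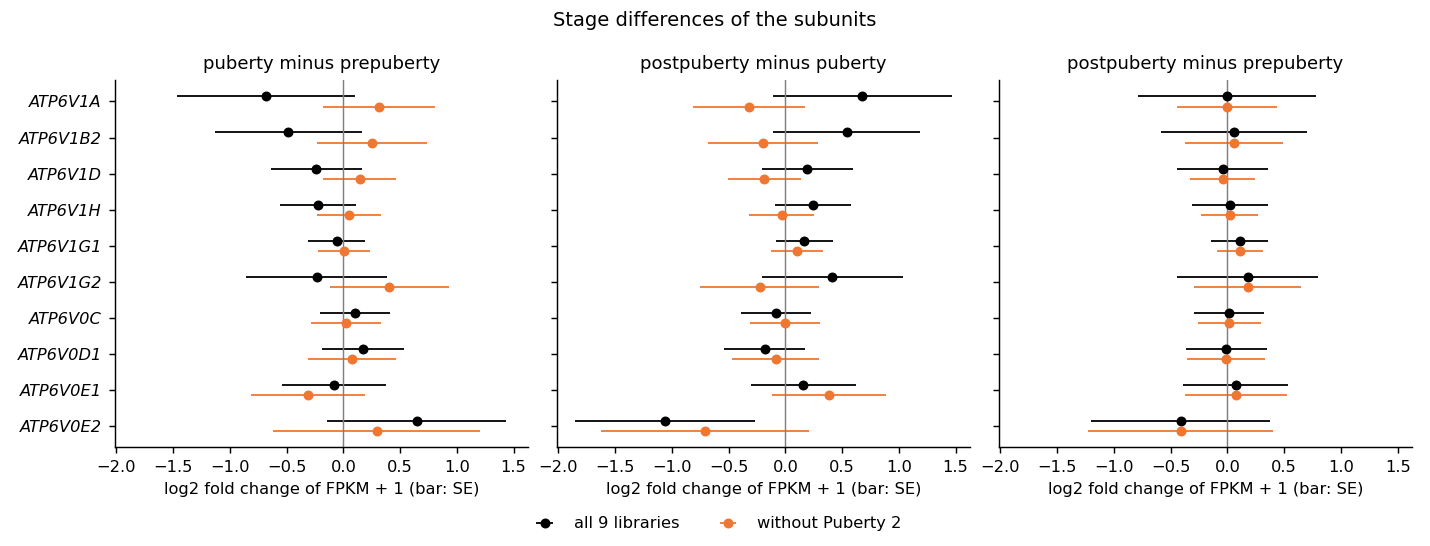
Log2 fold changes of FPKM + 1 (horizontal axes) of the 10 members in the 3 comparisons, with bars for the SE from limma; black, all 9 libraries; orange, without Puberty 2. None passed the test, and ATP6V1A moves from -0.68 to 0.31 for puberty minus prepuberty when Puberty 2 is left out.

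Complete separation of stages was also absent. For 0 of 10 members did all libraries of one stage lie above all libraries of another, while this held for 5.16% of all genes tested between prepuberty and puberty, 7.32% between puberty and postpuberty and 4.57% between prepuberty and postpuberty. Without Puberty 2 the count of members was still 0, beside 11.7% of genes for prepuberty and puberty and 14% for puberty and postpuberty.

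In Puberty 2, the 6 V1 members were below their mean over the other 8 libraries and the 4 V0 members above it. The ratio to that mean was 0.122 for ATP6V1A, 0.220 for ATP6V1B2, 0.283 for ATP6V1G2, 0.468 for ATP6V1D, 0.556 for ATP6V1H and 0.840 for ATP6V1G1, and it was 1.16 for ATP6V0C, 1.24 for ATP6V0D1, 1.27 for ATP6V0E1 and 2.29 for ATP6V0E2. Of all genes, 70.4% were below that mean. There, 5 members had their lowest value of all libraries (51.9% of all genes) and 1 its highest (20.2%).

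Subunits outside the members were mixed in this respect. In V1, ATP6V1C1 and ATP6V1C2 were below their means in Puberty 2, at 0.305 and 0.590 times, and ATP6V1E1 and ATP6V1F above, at 1.14 and 1.77 times. In V0, TCIRG1, ATP6V0B and RNASEK were above, at 1.20, 1.26 and 3.22 times, and ATP6V0A1 and ATP6V0A2 below, at 0.703 and 0.456 times. The accessory proteins ATP6AP1 and ATP6AP2 were also below, at 0.567 and 0.463 times.

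Without Puberty 2, the animals that were high for 1 member were high for most. Prepuberty 2 was the highest of the 8 libraries for 8 members (22.1% of all genes) and the lowest for ATP6V1G1 and ATP6V0E1 (17.1%). Prepuberty 1 was the highest for ATP6V1G1 and ATP6V0E1 (15.6% of all genes) and the lowest for 4 members (17.1%), and Postpuberty 1 was the lowest for the other 4 (12.9%). Within prepuberty and within postpuberty, the 8 members other than ATP6V1G1 and ATP6V0E1 had the same order of animals. At puberty they did not: Puberty 1 was above Puberty 3 for ATP6V1A, ATP6V1D, ATP6V1H and ATP6V0D1 and below it for the other 4.

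That order was described by the 45 correlations between pairs of members over the 8 libraries. The 28 pairs among the 8 members other than ATP6V1G1 and ATP6V0E1 had Pearson's r between 0.699 and 0.985 (median 0.927) and Spearman's rho between 0.81 and 1. The members were split in this way after their order in these libraries was seen. The ranges of r, and the bounds set from them for all pairs of genes, therefore follow in part from the split. Of all pairs among 6858 genes with a mean FPKM of at least 5, 8.71% had r at or above 0.699. ATP6V1G1 and ATP6V0E1 had r = 0.872 with each other (exact permutation p = 0.00459; rho = 0.857, p = 0.0107), and their 16 pairs with the rest had r between -0.869 and -0.419 and rho between -0.857 and -0.452, where 20.1% of all pairs had r at or below -0.419. ATP6V1G2 and ATP6V1G1 themselves had r = -0.786 (exact permutation p = 0.0214; rho = -0.643, p = 0.0962). Without the 2 libraries farthest from the median of the first gene of each pair, r was between 0.651 and 0.98 for the 28 pairs and between -0.724 and -0.029 for the 16, and for ATP6V1G2 and ATP6V1G1 it was -0.284 (exact permutation p = 0.589). With Puberty 2 included, the 28 pairs had r between -0.019 and 0.987 (median 0.468) and the 16 pairs between -0.775 and -0.039, and r was -0.274 for ATP6V1G2 and ATP6V1G1 and 0.377 for ATP6V1G2 and ATP6V0D1, so the shared order is a description of the other 8 libraries. The libraries share scaling within each column, and the points are the same animals in each pair.

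The genes closest to ATP6V1G2 over the 8 libraries, among 6858 genes with a mean FPKM of at least 5, were SLC25A3, the mitochondrial phosphate carrier (r = 0.991), AP3M2, a neuronal adaptor subunit (0.991), DNAJC6, the neuronal auxilin that uncoats clathrin vesicles (0.990), ATP5F1B, the beta subunit of mitochondrial ATP synthase (0.988), and GNB5, a G protein beta subunit (0.986). Of the members, ATP6V1B2 was the closest, at rank 41 of 6858 (r = 0.974), followed by ATP6V1H at 234, ATP6V1A at 262, ATP6V0D1 at 692, ATP6V1D at 831, ATP6V0C at 886 and ATP6V0E2 at 1511, while ATP6V1G1 and ATP6V0E1 were at 6450 and 6739. With Puberty 2 included, r with ATP6V1G2 was between 0.923 and 0.978 for the first 3 of these and ATP6V1D, and 0.377, 0.371 and 0.137 for ATP6V0D1, ATP6V0C and ATP6V0E2. Those closest to ATP6V1G1 were LOC105606943 (0.984), LOC114108769 (0.980), SNRPB2, a spliceosomal protein (0.979), TGM2, a transglutaminase (0.975), and LOC106990881 (0.974). With Puberty 2 included, the 5 neighbours of ATP6V1G2 had r between 0.874 and 0.985, whereas the 3 LOC genes near ATP6V1G1 had r between -0.126 and -0.095, SNRPB2 had 0.415 and TGM2 had 0.969.

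Whether the neuronal subunit followed the neuronal content of the samples more than the ubiquitous ones was asked with a list of neuron markers. Of 10 listed markers, 9 were in the table (RBFOX3, SNAP25, SYT1, STMN2, ENO2, MAP2, GAP43, SYP and NEFL), and none was at 0 in any library, with RBFOX3 lowest at 0.0249 to 3.10. Their summed FPKM was between 735 and 1940 at prepuberty, 493 (Puberty 2) and 1500 at puberty, and 628 and 1710 at postpuberty. None was called between stages.

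Over the 8 libraries, log2(FPKM + 1) of each gene was correlated with the mean log2(FPKM + 1) of the list, with exact two-sided permutation p-values adjusted over the 14235 genes with a defined r. With a positive r 5 members passed, and ATP6V1G2 was not among them: ATP6V0D1 (r = 0.966), ATP6V1H (0.965), ATP6V1B2 (0.948), ATP6V1A (0.946) and ATP6V1D (0.928), with exact permutation p between 9.92e-05 and 0.000942 and adjusted p between 0.0285 and 0.0378. Of all genes, 3.22% passed with a positive r. The corresponding rho were 0.952, 0.976, 0.833, 0.905 and 0.929, of which only that of ATP6V1H passed (adjusted p = 0.0441, exact permutation). With 1 more library left out, r of these 5 members stayed between 0.906 and 0.988. The count that passed was 0 without any one of Prepuberty 1, 2 and 3, Puberty 1 and Postpuberty 1 and 2, where 0 of all genes passed either (smallest possible p 0.000198), and it was 2 without Puberty 3 and 6 without Postpuberty 3. Over all genes, the number that passed in either direction moved likewise, from 580 with the 8 libraries to 174 and 1210.

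The neuronal ATP6V1G2 had r = 0.887 (exact permutation p = 0.00228, adjusted p = 0.0514; rho = 0.833, p = 0.0154), just outside the threshold. This rests on the adjustment over all genes, since its unadjusted p would pass an adjustment over the 10 members, as was planned, and the same holds for ATP6V0C and ATP6V0E2. With upper quartile scaling of the libraries ATP6V1G2 passed also over all genes (r = 0.882, adjusted p = 0.0429, exact permutation). ATP6V0C had r = 0.898 (adjusted p = 0.0533, exact permutation) and ATP6V0E2 had r = 0.855 (adjusted p = 0.0755). Whether the r of ATP6V1G2 differs from those of the broad subunits was not tested.

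The broad forms of the paralogous pairs had negative coefficients that did not pass. ATP6V1G1 had r = -0.701 (exact permutation p = 0.0540, adjusted p = 0.212; rho = -0.619, p = 0.115) and ATP6V0E1 had r = -0.709 (exact permutation p = 0.0530, adjusted p = 0.210; rho = -0.690, p = 0.0694), and 0 members passed with a negative r, beside 0.85% of all genes. Without Postpuberty 3, ATP6V0E1 passed (r = -0.932, adjusted p = 0.0313, exact permutation) and ATP6V1G1 had r = -0.87 (adjusted p = 0.0501), and with all 9 libraries they had r = -0.675 and -0.237. The ratio of ATP6V1G2 to ATP6V1G1 rose with the list (r = 0.874, exact permutation p = 0.00268; rho = 0.833, p = 0.0154), as did that of ATP6V0E2 to ATP6V0E1 (r = 0.919, exact permutation p = 0.00303; rho = 0.810, p = 0.0218). Adjusted over both ratios, the p-values of r were 0.00303 for each. The ratios are made of members already set against the same list, so they are not separate evidence. Their adjustment over 2 tests cannot be compared with that of the members over all genes, and ratios of other genes were not examined. With all 9 libraries the first ratio had r = 0.909 (exact permutation p = 0.000333) and the second had r = 0.486 (p = 0.179), so the second did not pass with Puberty 2 included.

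**Figure D4:**
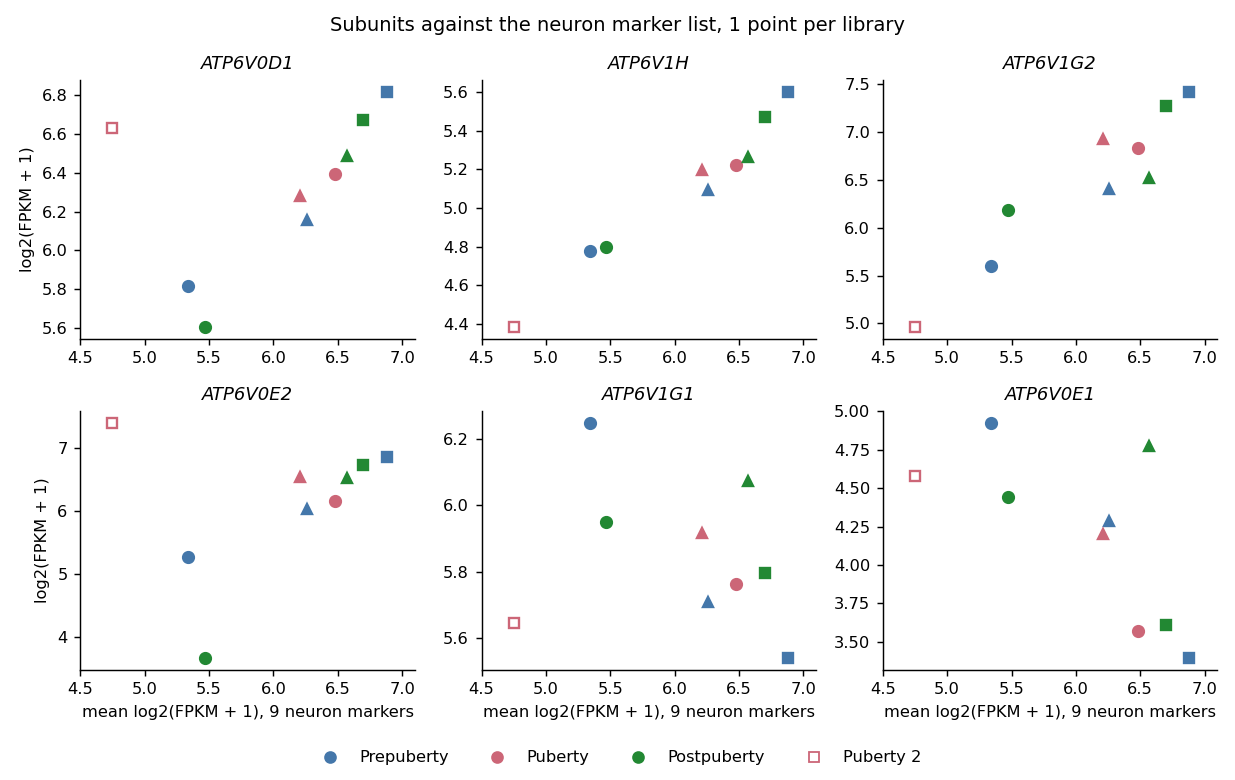
Log2(FPKM + 1) of 6 members (vertical axes) against the mean log2(FPKM + 1) of 9 neuron markers (horizontal axes), 1 point per library; colours mark stages and the open square is Puberty 2, which was left out of the r values quoted for 8 libraries. The r over 8 libraries is 0.966 for ATP6V0D1, 0.887 for ATP6V1G2 and -0.701 for ATP6V1G1, and Puberty 2 lies off the other points for ATP6V0D1, ATP6V0E2 and ATP6V1G1.

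The coefficients were computed again without the 2 libraries with the lowest marker levels. Without Prepuberty 1 and Postpuberty 1, the 2 libraries farthest from the median of the list, r over 6 libraries was 0.968 for ATP6V0D1 (exact permutation p = 0.00417), 0.926 for ATP6V1H (p = 0.00972), 0.889 for ATP6V1D (p = 0.0250), 0.844 for ATP6V1A (p = 0.0389) and 0.831 for ATP6V1B2 (p = 0.0403), all positive as before. With 6 libraries the 720 permutations cannot give a p below 0.00139, and 0 of all genes passed after adjustment, so the loss of calls says nothing about these relations. ATP6V1G2 then had r = 0.694 (exact permutation p = 0.128) and ATP6V0E2 0.709 (p = 0.122), and ATP6V1G1 and ATP6V0E1 stood at -0.396 and -0.548. The ratio of ATP6V1G2 to ATP6V1G1 then had r = 0.673 (exact permutation p = 0.142) and that of ATP6V0E2 to ATP6V0E1 had 0.738 (p = 0.106), lower than over 8 libraries and no longer past an unadjusted 0.05.

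With all 9 libraries, 5 members again passed with a positive r (10.9% of all genes did), 4 of them the same: ATP6V1H (0.982), ATP6V1D (0.963), ATP6V1B2 (0.962) and ATP6V1A (0.938), joined by ATP6V1G2 (0.942, adjusted p = 0.00673 by exact permutation). Of the V0 members, r was 0.468 for ATP6V0D1, 0.437 for ATP6V0C and 0.259 for ATP6V0E2, each lower than over 8 libraries. With stage means subtracted, an alternative added after seeing the data, the r values over 8 libraries were between 0.885 and 0.969 for the 8 members and -0.734 and -0.717 for ATP6V1G1 and ATP6V0E1, and 0 members and 0 of all genes passed. Its 72 arrangements within stages cannot give a p below 0.0139, so this test could not show whether the relation holds. Summed astrocyte markers were lowest in Postpuberty 2 (2770) and Prepuberty 2 (2820) and highest in Prepuberty 1 (7140), and summed microglia markers were 343 in Prepuberty 1, 317 in Postpuberty 3 and 108 in Prepuberty 2. The astrocyte sums were mostly GFAP (6620 in Prepuberty 1, 2350 in Prepuberty 2). AQP4, ALDH1L1 and GJA1 were also higher in Prepuberty 1 than in Prepuberty 2, whereas SLC1A2 (32.8 against 74.4) and SLC1A3 (138 against 204) were lower. The mean log2(FPKM + 1) of the astrocyte markers was 7.28 in Prepuberty 1 and 7.05 in Prepuberty 2, and it was lowest in Puberty 2 (5.8). The part of cell makeup in the differences between animals was not tested.

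The complex has other genes beside the members, and 27 were listed: 16 subunits and accessory proteins and 11 assembly and regulatory factors. Of these, 22 passed the filter, and 0 were called between stages in any of the 3 comparisons. ATP6V1B1, ATP6V1E2, ATP6V1G3, ATP6V0A4 and ATP6V0D2, forms known from kidney, testis and bone among other tissues, were under a mean FPKM of 0.5 in every stage. The highest were RNASEK (mean FPKM 130 over 9 libraries), ATP6V1E1 of the peripheral stalk (128) and ATP6V1F of the rotor stalk (110). The mean of RNASEK included 336 in Puberty 2. Over the other 8 libraries the means were 126 for ATP6V1E1, 104 for RNASEK and 101 for ATP6V1F, so ATP6V1E1 was then the highest.

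With the neuron list, 2 of 4 other V1 subunits passed with a positive r, ATP6V1C1 (0.891) and ATP6V1E1 (0.972), and 1 of 7 V0 and accessory genes, ATP6V0A1 (0.970), a brain form of the large membrane subunit. The adjusted p-values by exact permutation were 0.0408, 0.0309 and 0.0285. Of 11 assembly and regulatory genes 2 passed, WDR7 (0.952), which belongs to the rabconnectin complex of synaptic vesicles, and NCOA7 (0.972), and of 10 lysosomal genes and 6 vesicular transmitter transporters 0 passed, where 3.22% of all genes did. The median r was 0.852 for the other V1 subunits, 0.822 for the V0 and accessory genes, 0.541 for the assembly and regulatory genes, -0.167 for the lysosomal genes and -0.21 for the transporters, against 0.913 for the members and -0.077 over all genes. The 5 genes named here for their r were chosen after their values were seen.

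The study paired 4 lncRNA transcripts with ATP6V1G1, ATP6V1G2 and ATP6V0E1 by their position in the genome, and each was seen mainly in 1 library. MSTRG-18414.2, near ATP6V0E1, stood at FPKM 3.72 in Puberty 2, and 0.327 was its highest value in any other library. MSTRG-2663.10, near ATP6V1G1, stood at 18.4 in Puberty 2, at 0.606 in Puberty 3 and at 0 otherwise, and MSTRG-2663.11, near the same gene, at 3.27 in Postpuberty 2 and at 0 otherwise. MSTRG-21500.42, near ATP6V1G2, stood at 5.79 in Postpuberty 2, with 0.753 as its next value. In those libraries the members themselves were not the highest of the series: ATP6V0E1 was at 22.9 and ATP6V1G1 at 49.0 in Puberty 2, and ATP6V1G1 was at 54.6 and ATP6V1G2 at 154 in Postpuberty 2. Counted from the lowest library, ATP6V0E1 was at rank 7 and ATP6V1G1 at rank 2 in Puberty 2. In Postpuberty 2, ATP6V1G2 was below Prepuberty 2 (171) only, and ATP6V1G1 was below its mean (57.3). Whether the lncRNAs are related to these genes was not tested.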

How the data were processed

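RNA of 9 hypothalami was sequenced, 1 library per ewe. Per the study's methods and processing notes, the authors trimmed reads with Trimmomatic (the sources differ on its version), aligned them with HISAT2 to the sheep genome and quantified transcripts with StringTie. The deposited values are FPKM per transcript, although called raw counts, so count tests could not be used and depth in reads was not analysed. Of 76684 mRNA transcripts, 76682 matched a RefSeq symbol (ARS-UI_Ramb_v3.0), and FPKM was summed per gene. Stages were compared with limma 3.58.1 (R 4.3.3, trended variance) on log2(FPKM + 1), which understates changes of low genes. Ratios and correlations were tested by exact permutation (numpy 2.4.6, scipy 1.17.1). The neuron relation was planned with adjustment over the 10 members and was adjusted over all genes tested. The scripts were tested on simulated data. Members, lists and tests were chosen with earlier results of these data known. All members were named. Outside the marker lists, other genes were named if called, if among the 3 highest of the complex, if under the filter, or if among the 5 nearest to a G subunit. More genes of the complex were named for their values in Puberty 2. Markers named beside a sum were chosen after their values were seen. Genes of the complex named for Puberty 2 or the neuron list were chosen after their values were seen. Same-numbered libraries had correlated deviations of -0.315 to 0.515 over 9 pairs, so the numbers were not taken to pair animals. Alternatives covered pseudocount, filter, scaling, weights, transcripts and left-out libraries. A planned marker list is not reported here.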

Additional observations from a re-analysis of the deposited data

How the results depend on the processing

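No member was called between stages under any alternative, where the lowest adjusted p of a member was 0.532 (limma). Of 630 log2 fold changes of members under alternatives 79 changed sign, and 27 of the 30 comparisons of a member did so at least once. Changes of filter, variance model, replicate block or libraries outside a comparison cannot move its log2 fold changes. The share of 79 in 630 therefore understates how readily signs changed. For puberty minus prepuberty and postpuberty minus puberty, signs changed most often without Puberty 2 (6 and 5) and with array weights (6 and 5). Array weights also changed 3 signs for postpuberty minus prepuberty. They gave Puberty 2 the lowest weight, 0.0653, and Prepuberty 3 the highest, 8.13. Over all genes, limma called 0 in each comparison, but with array weights 4 for puberty minus prepuberty and 1 for postpuberty minus puberty. The fit with the replicate block called 0 genes and 0 members (lowest adjusted p of a member 0.794), and the exact paired test gave p = 1 for each difference of the ATP6V1G2 to ATP6V1G1 ratio and 0.75, 0.5 and 0.25 for ATP6V0E2 to ATP6V0E1, where 0.25 is the smallest p that 3 pairs can give.

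The 5 members that passed with the neuron list were 0 without the 2 libraries farthest from the median, 0 with stage means subtracted and 0 to 6 with 1 of the 8 libraries left out. Where the count was 0, 0 of all genes passed either, and r of the 5 was 0.831 or more. The number of permutations alone did not set this. Without Puberty 3 and without Postpuberty 3, 174 and 1210 of all genes passed with the same smallest possible p of 0.000198 as for the other single libraries. They were 7 with upper quartile scaling and 4 with a pseudocount of 0.1, where 982 and 396 of all genes passed against 580. With 1 library left out, the log2 difference of the ATP6V1G2 to ATP6V1G1 ratio was between -0.84 and 0.45 for puberty minus prepuberty and between -0.33 and 0.56 for postpuberty minus puberty, and between -0.59 and 0.70 for postpuberty minus prepuberty. That of ATP6V0E2 to ATP6V0E1 was between -0.05 and 1.58, -2.18 and -0.14, and -1.44 and 0.59, so only postpuberty minus puberty kept its sign. The cause of these changes was not tested. Read depth was not analysed here, and with 3 animals per stage differences within the spread between animals were not detectable.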
